A study of Mus musculus with 8 samples.

Results

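The Nr4a family comprises 3 genes, Nr4a1, Nr4a2 and Nr4a3, which were taken by name from the 22609 gene symbols of the deposited expression table. All 3 were present and all 3 passed the filter on low values, so no member was left out of the tests on 14704 genes. Total RNA of the mouse medial prefrontal cortex (anterior cingulate part, both hemispheres) of B6.SJL mice, 3 months old, had been sequenced 1 h after training, with 4 samples per group. Fear conditioned mice explored a chamber for 3 min, were given 2 foot shocks of 0.8 mA lasting 2 s each at an interval of 30 s, and were left there for another 15 s. Context controls had the same exposure to the chamber without a shock, so both groups had met a chamber before the tissue was taken, and an untouched home cage group was not analysed here. No transgene or deletion is named for either group, and the labels do not say whether a sample is 1 mouse or a pool. The series calls the samples biological replicates.

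Nr4a proteins are nuclear receptors that act without a bound hormone, because bulky side chains fill the pocket where a ligand would sit. They bind DNA as monomers at the NBRE motif or as dimers at paired copies of it, and Nr4a1 and Nr4a2 can also pair with the retinoid X receptors. In neurons the 3 genes are immediate early genes, switched on within minutes by calcium and cyclic AMP signals that act through the transcription factor CREB and its relatives, and in the hippocampus they are known for a role in turning new learning into long-term memory. Nr4a2 is also needed for midbrain dopamine neurons, and in the cortex it marks neurons of the deepest layer and the neighbouring claustrum.

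The promoters of the 3 genes are shown because CREB is a main route to their induction, with every CREB core motif in capitals (TGACG, or CGTCA where the motif lies on the other strand). The sequences are from RefSeq on GRCm38.p6, which matched all 3 symbols. They are given 5′ to 3′ on the strand of the gene and stop before the listed start of transcription or, if sooner, before an annotated exon. The Nr4a1 stretch lies inside the annotated gene, which begins at chr15:101254269.
Nr4a1, plus strand, chr15:101266596-101266845: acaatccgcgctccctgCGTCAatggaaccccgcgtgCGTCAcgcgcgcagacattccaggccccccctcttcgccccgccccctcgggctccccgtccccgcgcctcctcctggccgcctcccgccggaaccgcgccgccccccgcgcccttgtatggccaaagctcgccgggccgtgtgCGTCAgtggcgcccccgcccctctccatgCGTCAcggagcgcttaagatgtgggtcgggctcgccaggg
Nr4a2, minus strand, chr2:57124004-57124253: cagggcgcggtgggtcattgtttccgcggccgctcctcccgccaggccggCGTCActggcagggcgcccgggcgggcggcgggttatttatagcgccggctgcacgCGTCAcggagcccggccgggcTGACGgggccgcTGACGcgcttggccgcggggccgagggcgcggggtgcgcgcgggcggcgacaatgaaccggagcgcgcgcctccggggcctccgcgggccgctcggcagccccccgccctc
Nr4a3, plus strand, chr4:48045055-48045152: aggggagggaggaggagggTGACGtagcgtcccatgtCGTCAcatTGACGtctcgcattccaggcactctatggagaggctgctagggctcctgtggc

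Each of the 3 windows of 300 bases, which run from 250 bases before the listed start to 50 bases after it, held 4 CREB core motifs. All 4 lie in the printed stretch for Nr4a1 and Nr4a2, and 3 of 4 do for Nr4a3. Of 32851 promoter windows of the same length in the same table, 20.8% held at least 1 such motif and 0.231% held at least 4. Among the 9690 windows with a GC content of at least 60%, 0.557% held at least 4. The full palindrome TGACGTCA was found in none of the 3 windows and in 1.79% of all windows, with both strands searched and the palindrome counted as 2 overlapping cores. The Nr4a2 window also held a MEF2 site and, overlapping it, the letters TATAAA on the opposite strand, which were in 3.19% and 13.6% of all windows. No window held the NBRE motif AAAGGTCA (1.51% of all windows) or a CArG box (1.63%), the motif of serum response factor. These matches describe the letters of the windows, and binding was not measured. Nr4a1 and Nr4a2 have further annotated starts. The annotated Nr4a3 gene begins at chr4:48045153, inside its window of chr4:48045055-48045354 and before the listed start. The bases of that window past this point, with the motif that is not printed, therefore lie inside the annotated gene. Since reads were counted per gene, the start used in these samples is not known for any of the 3 genes.

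Values are scaled read counts, that is, whole gene reads over a constant that differs between samples. Between 1992452 and 3565356 gene reads were recovered per sample. Markers of cortical neurons were present in every sample, with summed scaled counts of 8072 to 11846 for 7 excitatory neuron genes and 2593 to 3064 for 6 interneuron genes. The sums were 474 to 847 for the striatal markers and 4.80 to 47.4 for the blood markers, 2 of which were at 0 throughout. Those 2 were the globin genes Hba-a1 and Hba-a2, and the blood sum came mostly from Alas2 (means 24.8 in controls and 10.7 after conditioning). It rests on almost no globin reads, so no conclusion on blood content is drawn from it. Markers of astrocytes, the oligodendrocyte lineage, microglia and vessels were present in all samples. Across genes, the deviations from the group means correlated between control and conditioned samples within numbers 1 and 2 (r 0.51 to 0.67) and within numbers 3 and 4 (0.22 to 0.76), and inversely between these sets (-0.26 to -0.70), while the labels name no batch. The differences between samples of the same number are given beside the group comparison, although these correlations do not single out pairs by number.

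Nr4a1 was the most abundant member, Nr4a2 came next and Nr4a3 was the least abundant. Per kilobase of annotated exon (GENCODE vM21), the mean level over the 8 samples was 122 ± 49.5 scaled reads for Nr4a1, 41.2 ± 10.2 for Nr4a2 and 20.4 ± 7.24 for Nr4a3 (SD, n = 8). This order held in 8 of 8 samples for Nr4a1 above Nr4a2 and in 8 of 8 for Nr4a2 above Nr4a3. Across samples the ranges of neighbouring members still overlapped, at 54.7 to 217 for Nr4a1, 28.9 to 60.1 for Nr4a2 and 13.4 to 35.0 for Nr4a3. On GRCm38 the genes lie at chr15:101254269-101274795 (Nr4a1, plus strand), chr2:57106830-57124003 (Nr4a2, minus strand) and chr4:48045153-48086447 (Nr4a3, plus strand). The lengths rest on exon unions of 3.509 kb, 4.059 kb and 5.987 kb, and the order was the same with the longest transcript of each gene.

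Among the 37 nuclear receptor genes with a level per kilobase, Nr4a1 ranked 4, Nr4a2 ranked 8 and Nr4a3 ranked 14. The ranks were 2, 9 and 17 when the longest transcript gave the length. The thyroid hormone receptor gene Thra led with 203 ± 68.4 scaled reads per kilobase. Next to Nr4a1 stood the clock repressor genes Nr1d2 (129 ± 28.8) and Nr1d1 (124 ± 56.7) above it. The glucocorticoid receptor gene Nr3c1 (96.0 ± 21.5) stood below it. Nr4a2 stood beside Nr2f1 (41.5 ± 7.52), a regulator of cortical area identity, and the retinoid X receptor gene Rxrb (32.4 ± 11.4). Nr4a3 stood beside Nr2c2 (21.5 ± 4.63) and the mineralocorticoid receptor gene Nr3c2 (19.8 ± 6.13). For each of these neighbours the mean ± SD range overlapped that of the member beside it. These SDs are spreads between samples, and differences in level between genes were not tested. Of all tested genes with a length, 90.6% lay below Nr4a1, 70.1% below Nr4a2 and 53.3% below Nr4a3.

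**Figure D1:**
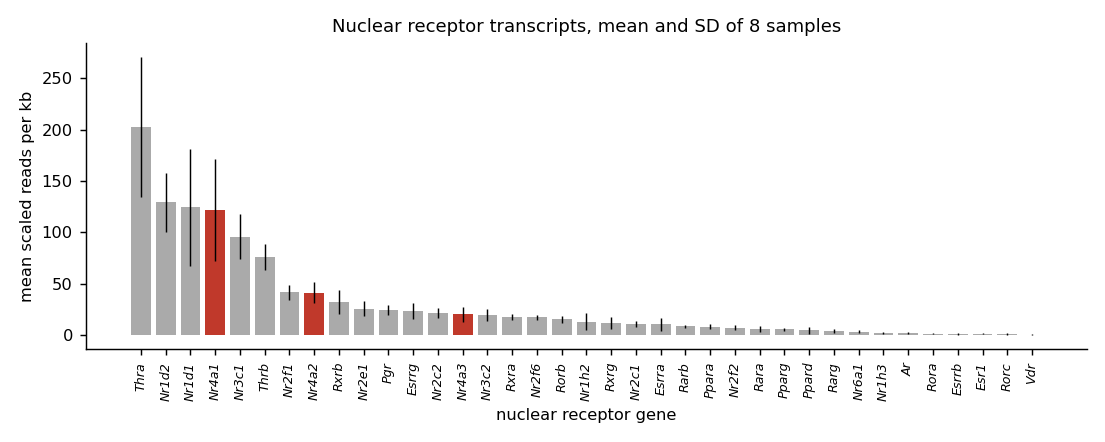
Mean scaled reads per kilobase of exon (vertical axis) for 37 nuclear receptor genes (horizontal axis), with bars for the mean and lines for the SD of 8 samples. The Nr4a genes, in red, take ranks 4, 8 and 14.

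Nr4a3 had the largest log2 change of the 3 members after conditioning and was the only one of them whose groups did not overlap, yet it did not pass the test over all genes. Its scaled counts were 90.5, 96.7, 102 and 80.5 in context controls 1 to 4, and 134, 209.6, 159 and 106 in conditioned samples 1 to 4. Every conditioned sample lay above every control, with conditioned sample 2 the highest of all and conditioned sample 4 closest to the controls. The group means were 92.4 ± 9.19 and 152 ± 43.8 (SD, n = 4), a log2 change of 0.68 with a standard error of 0.22 and a 95% interval of 0.19 to 1.16. limma gave an unadjusted p of 0.0104, the 57th smallest of 14704 genes, and an adjusted p of 0.9998. Of all tested genes, 0% were called at an adjusted p under 0.05, and 397 (2.7%) had an unadjusted p under 0.05, as 2 of the 3 members did. Those higher at that level were 1.18%, and 0.979% had every conditioned sample above every control. A log2 change above 0, found in 2 of 3 members, was found in 51.8% of genes. The count of called genes was likewise 0 in edgeR (385 below 0.05 before adjustment) and in DESeq2 (340). Without conditioned sample 4 limma called 1 gene, which was no member.

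The gap that separated the Nr4a3 groups was narrower than the counting error of the samples on either side of it. Conditioned sample 4 rested on 111 reads, whose 95% Poisson interval spans 87.6 to 128 scaled counts, and control 3 rested on 101 reads with an interval of 83.0 to 124. Conditioned sample 2, with 158 reads and an interval of 178 to 245, and conditioned sample 3, with 116 reads and an interval of 131 to 190.1, lay wholly above the interval of every control. The interval of conditioned sample 1, 109 to 163, overlapped those of controls. These intervals cover counting error only. All 4 differences between samples of the same number were positive, at 0.56, 1.11, 0.63 and 0.40 on the log2 scale for numbers 1 to 4. Groups that do not overlap give positive differences under any pairing. With the replicate number as a block, the standard error was 0.19 and the unadjusted p 0.0039, the 23rd smallest, while limma's adjusted p was 0.997. Over all alternatives that adjusted p ran from 0.828 to 1.

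Nr4a2 was also higher on average after conditioning without passing, and its groups overlapped. Its scaled counts were 117, 122, 179 and 143 in controls 1 to 4, and 191, 244, 159.9 and 180.4 in conditioned samples 1 to 4. Conditioned sample 3 lay below control 3, and the other 3 conditioned samples lay above every control, sample 4 by less than 1 scaled count. The means were 140.5 ± 28.3 and 194 ± 35.9 (SD, n = 4), a log2 change of 0.46 with a standard error of 0.20 and a 95% interval of 0.03 to 0.90. limma gave an unadjusted p of 0.0379 and an adjusted p of 0.9998. Differences by number were 0.70, 0.99, -0.17 and 0.33, so 3 of 4 were positive.

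Nr4a1 gave no direction. Its scaled counts were 444, 351, 498 and 372 in controls 1 to 4, and 526, 760.1, 281 and 192 in conditioned samples 1 to 4. Conditioned samples 1 and 2 lay above every control and conditioned samples 3 and 4 below every control. The means were 416 ± 67.8 and 439.9 ± 256 (SD, n = 4), while the mean log2 change was -0.10 with a standard error of 0.34 and a 95% interval of -0.85 to 0.64, so the sign depended on the scale (limma adjusted p = 0.9998). The change was 0.04 without conditioned sample 3, 0.23 without conditioned sample 4, -0.26 without conditioned sample 1 and -0.43 without conditioned sample 2. It was also -0.18 and -0.07 without controls 2 and 1, and -0.01 without control 3. Differences by number were 0.24, 1.11, -0.82 and -0.95.

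**Figure D2:**
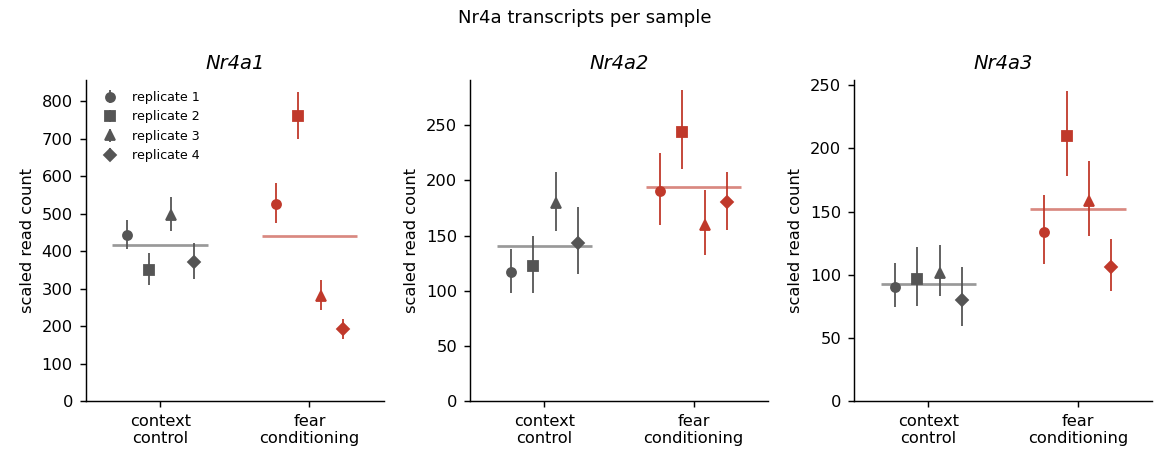
Scaled read counts (vertical axes, starting at 0) of the 3 genes in 4 context controls (grey) and 4 conditioned samples (red), with 1 marker shape per replicate number, 95% Poisson counting intervals as lines and group means as bars. The Nr4a3 groups do not overlap, at 80.5 to 102 and 106 to 209.6, while the Nr4a1 values after conditioning run from 192 to 760.1 on both sides of the controls.

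**Figure D3:**
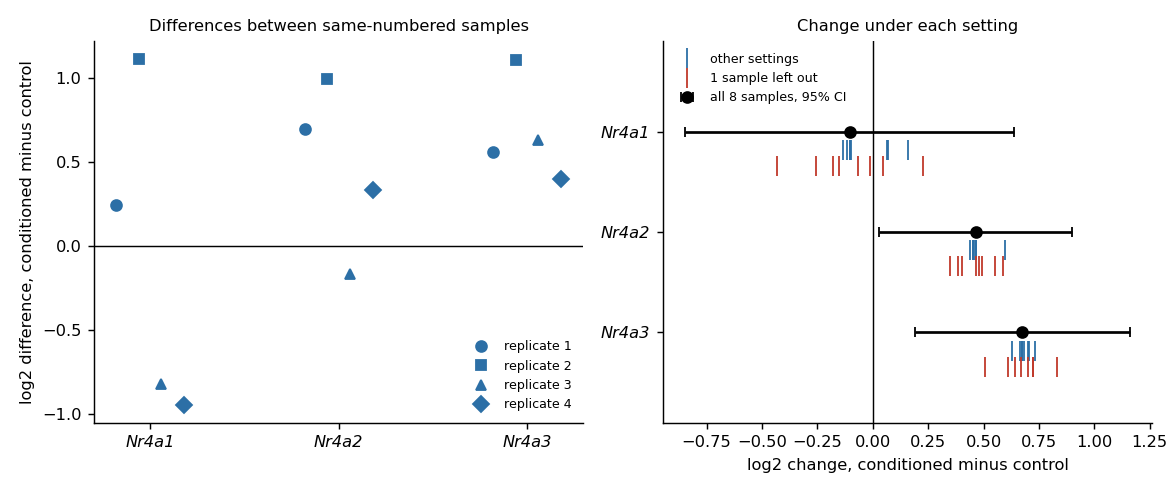
Left, log2 differences (vertical axis) between conditioned and control samples of the same replicate number; right, the log2 change (horizontal axis) with its 95% interval over all 8 samples in black, under other settings in blue and with 1 sample left out in red. Nr4a3 lies above 0 in all 4 differences and under every setting drawn, and Nr4a1 falls on both sides of 0.

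The scatter of the members among conditioned samples was unlike. The SD of the log2 values of Nr4a1 was 0.23 in controls and 0.89 after conditioning, a ratio of 3.82. Of 8739 genes with a mean of at least 50, 2.87% had a ratio at least as large, and the median ratio was 1.30. For Nr4a3 the SD was 0.15 and 0.41, a ratio of 2.82 that 7.0% of these genes reached. For Nr4a2 the SD was 0.28 and 0.26, a ratio of 0.92. No test was made of these spreads.

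The proportions of the members also parted in conditioned samples 3 and 4. The ratio of Nr4a3 to Nr4a1 scaled counts was 0.204, 0.276, 0.204 and 0.216 in controls 1 to 4 and 0.255 and 0.276 in conditioned samples 1 and 2, but 0.563 and 0.555 in conditioned samples 3 and 4. The ratio of Nr4a2 to Nr4a1 was 0.264 to 0.385 in controls, 0.362 and 0.321 in conditioned samples 1 and 2, and 0.568 and 0.94 in conditioned samples 3 and 4. In those 2 samples Nr4a1 was at its lowest while Nr4a2 and Nr4a3 stayed within or above the range of the controls. The ratio of Nr4a3 to Nr4a2 overlapped between the groups, at 0.562 to 0.791 and 0.590 to 0.991. These ratios come from counts not corrected for length, were chosen with the values known and were not tested.

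**Figure D4:**
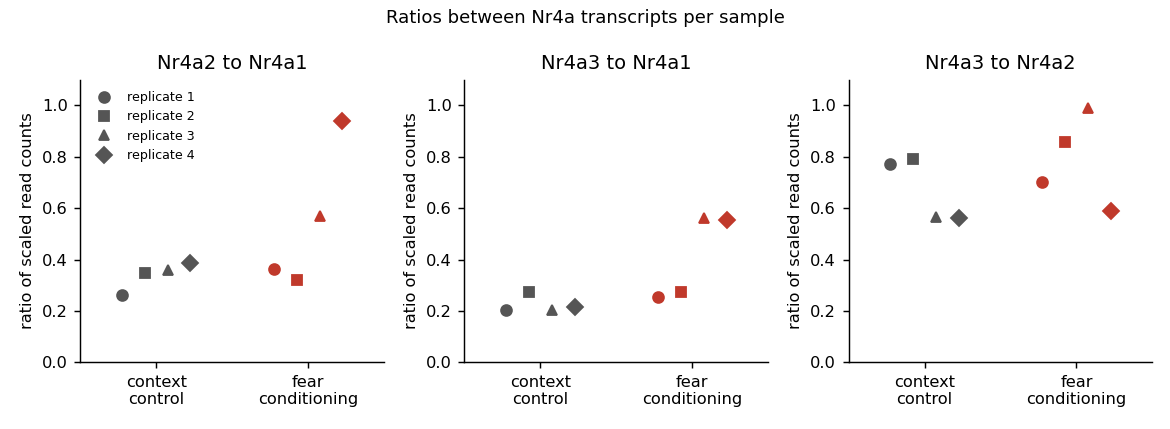
Ratios of scaled read counts between pairs of Nr4a genes (vertical axes) in each context control (grey) and conditioned sample (red), with 1 marker shape per replicate number. Conditioned samples 3 and 4 stand at 0.563 and 0.555 for Nr4a3 to Nr4a1, above all other samples.

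No pair of members had a correlation across samples that passed after adjustment over the 3 pairs. Nr4a2 and Nr4a3 had the highest r over all 8 samples but the lowest r of deviations from the group means. The log2 values of these 2 genes had a Pearson r of 0.76 over the 8 samples (exact permutation p = 0.0297, adjusted p = 0.0892, two-sided) and a Spearman rho of 0.79 (exact permutation p = 0.0279, adjusted p = 0.0838). Without the 2 samples farthest from the median of Nr4a2, control 1 and conditioned sample 2, r fell to 0.44 (exact permutation p = 0.39). It was 0.74 without control 1 alone and 0.53 without conditioned sample 2 alone. For Nr4a1 and Nr4a2 r was 0.38 and rho 0.43 (exact permutation p = 0.358 and 0.299, adjusted p = 0.358 and 0.449). Without conditioned samples 2 and 4 that r was 0.37. For Nr4a1 and Nr4a3 r was 0.39 and rho 0.24 (exact permutation p = 0.335 and 0.582, adjusted p = 0.358 and 0.582). Without the same 2 samples that r was -0.23. The permutations ignored the groups, so each p also takes in any difference between groups that 2 genes share. The deviations from group means gave r of 0.63, 0.75 and 0.46 for the pairs of Nr4a1 with Nr4a2, Nr4a1 with Nr4a3 and Nr4a2 with Nr4a3. These last r were not tested.

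Companion immediate early genes, a list of 28 induced factors and effectors, did not pass in either direction after conditioning. Of 28 tested members 14 were higher and 14 lower, none was called by limma, 1 had an unadjusted p under 0.05, and the median log2 change was 0.02 (range -0.61 to 0.48), beside 0.01 over all tested genes. The lowest p belonged to Btg2, an antiproliferative gene (118 ± 21.1 in controls and 76.9 ± 10.4 after conditioning, SD, n = 4, limma adjusted p = 0.9998), and to Trib1, a pseudokinase gene (255 ± 65.0 and 181 ± 43.0). Btg2 was the 1 companion with every conditioned sample below every control, as 0.939% of all tested genes were. Promoter windows were listed for 21 companions, and 15 (71.4%) held a CREB core motif, among them Fos, Fosb, Junb, Npas4 and Per1, against 23.0% of 27025 genes in the table. The other pathway lists described below were also above that share, at 33.3% to 50%, and cell type marker lists ran from 0% to 40%. These shares were not matched for GC content.

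Companions were counted by their correlation with each member across samples. Of the 22 companions with a mean of at least 50, 11 (50%) had an r above 0.7 with Nr4a1, and 9.35% of 8738 genes did. The counts were 5 (22.7%, and 0.492% of all genes) for Nr4a2 and 2 (9.09%, and 1.40%) for Nr4a3. Fos and Junb exceeded 0.7 with all 3 members. Arc, Egr1 and Egr3, a synaptic effector and a pair of zinc finger factors, had r of 0.96, 0.88 and 0.89 with Nr4a1 but 0.21, 0.33 and 0.29 with Nr4a2. Jun, an AP-1 subunit gene, had r of 0.16 with Nr4a1 and 0.77 with Nr4a2. Without the 2 samples farthest from each member's median the counts were 6, 3 and 0 of 22 for Nr4a1, Nr4a2 and Nr4a3, beside 3.28%, 3.23% and 2.43% of all genes. These r share libraries and their depth, describe 8 samples and carry no test. The comparison was chosen with the values known.

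**Figure D5:**
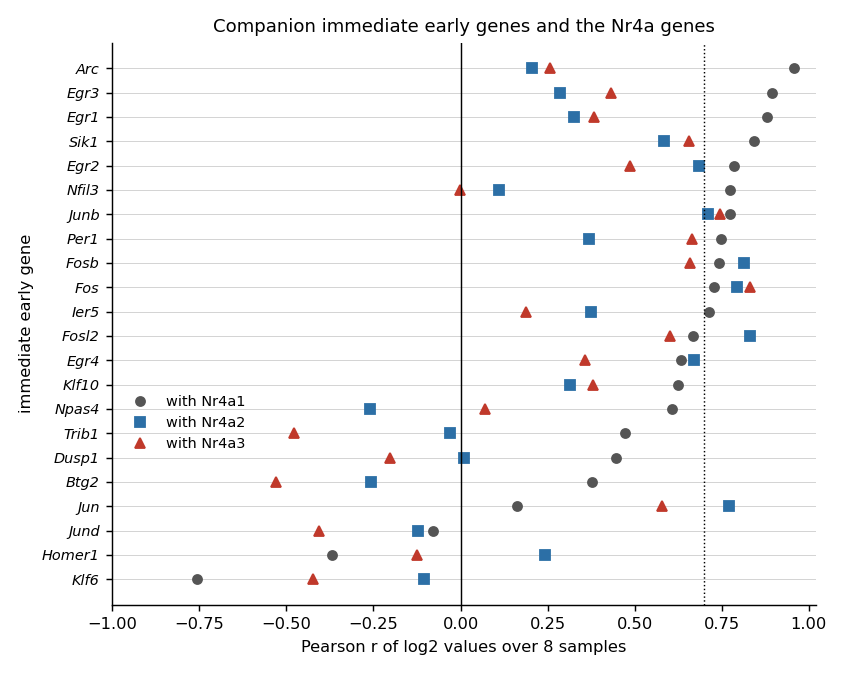
Pearson r of log2 values over 8 samples (horizontal axis) between 22 companion immediate early genes (vertical axis) and Nr4a1 (circles), Nr4a2 (squares) and Nr4a3 (triangles), with a dotted line at 0.7. Arc lies at 0.96 with Nr4a1, and 11 companions lie past the line with Nr4a1, 5 with Nr4a2 and 2 with Nr4a3.

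The genes most like each member across the 8 samples, ranked by r among 8739 genes with a mean of at least 50, differed between members. For Nr4a1 they were Pigq, a gene of glycolipid anchor synthesis (r = 0.97), Arc (0.96), the brain glycogen phosphorylase gene Pygb (0.95), the kinase gene Pim3 (0.94) and Stard10 (0.94). Arc scaled counts were 774, 650.02, 837 and 525 in controls 1 to 4 and 982, 1013, 419 and 273 in conditioned samples 1 to 4, high in conditioned samples 1 and 2 and low in 3 and 4 like Nr4a1. Conditioned samples 1 and 2 also parted from 3 and 4 across genes, as given above. Without conditioned samples 2 and 4 the r of Arc was 0.95 and that of Pigq 0.92. For Nr4a2 they were the microglial gene Fcrls (0.90), Arl5b (0.87), the repressor gene Etv3 (0.85), the matrix gene Tnr (0.85) and Cpeb4 (0.84). For Nr4a3 they were Txndc11 (0.92), Cpeb4 (0.91), the splicing helicase gene Snrnp200 (0.90), Pgd (0.89) and the mitochondrial ribosomal gene Mrps12 (0.89). Cpeb4, which encodes a regulator of messenger RNA translation, was the gene common to the lists of Nr4a2 and Nr4a3. Its scaled counts were 117, 128, 169 and 116 in controls 1 to 4 and 156, 212, 187 and 152 in conditioned samples 1 to 4, so control 3 lay within the conditioned range. With the farthest 2 samples left out, its r was 0.63 with Nr4a2 and 0.74 with Nr4a3. No p is given for genes ranked on this value.

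Genes upstream of the Nr4a promoters, the kinases, phosphatases and factors that carry calcium and cyclic AMP signals to the nucleus, did not pass. Of 23 tested members 19 were higher and 4 lower with a median log2 change of 0.10 (range -0.20 to 0.53), and 0 were called or reached an unadjusted p under 0.05 in limma. The median over all tested genes was 0.01. The smallest p belonged to the CREB coactivator genes Crebbp (101 ± 33.95 in controls and 142 ± 26.9 after conditioning, log2 change 0.53) and Ep300 (288 ± 26.8 and 329 ± 35.6, log2 change 0.19) (SD, n = 4, limma adjusted p = 0.9998 for both). Crebbp overlapped between groups, since control 2 stood at 146 and conditioned sample 2 at 121. Creb1 itself was 354 ± 69.7 and 374 ± 156.

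Partners and coregulators of the receptors also had no member past the threshold. Of 13 tested members 10 were higher and 3 lower, with a median log2 change of 0.10 and 0 at an unadjusted p under 0.05 in limma. The coactivator gene Ncoa2 was 445 ± 66.9 in controls and 539.9 ± 61.3 after conditioning (SD, n = 4, log2 change 0.29, limma adjusted p = 0.9998). The retinoid X receptor genes Rxra, Rxrb and Rxrg had log2 changes of -0.09, -0.10 and 0.29. Hdac3, a deacetylase known to hold Nr4a genes down, was 312 ± 47.1 and 303 ± 47.5.

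Reported targets of the receptors did not pass either. Of 13 endoplasmic reticulum chaperone genes 12 were lower and 1 higher, with a median log2 change of -0.09 (range -0.29 to 0.04) and 0 called or at an unadjusted p under 0.05 in limma. The smallest p belonged to the cochaperone gene Dnajb11 (333 ± 45.5 in controls and 293 ± 39.5 after conditioning, log2 change -0.19) and the disulfide isomerase gene Pdia6 (588 ± 54.1 and 529 ± 62.9, log2 change -0.16), with a limma adjusted p of 0.9998 for both (SD, n = 4). Of 9 transmitter and trophic genes 7 could be tested, 2 higher and 5 lower, with 0 called or at an unadjusted p under 0.05 in limma. The smallest p there belonged to the retinaldehyde dehydrogenase gene Aldh1a1, at 109 ± 92.3 and 56.5 ± 25.4, and the decarboxylase gene Ddc, at 19.3 ± 19.98 and 19.9 ± 1.37. Control 3 held the highest value of both, 244 for Aldh1a1 and 48.4 for Ddc. The log2 change of Aldh1a1 was -0.21 without control 3, and that of Ddc was 1.17 without control 3 and -0.01 without control 4. The NBRE motif was in the promoter window of Ddc, of 8 such genes with a window, in none of 11 chaperone genes, and in 1.70% of all genes. Th, the dopamine synthesis gene that Nr4a2 drives in the midbrain, was near the floor at 3.53 ± 1.27 and 4.10 ± 4.08.

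Levels of cell type markers are set here beside the Nr4a2 and Nr4a3 values. Of all tested genes, 51.8% were higher after conditioning and 2.7% had an unadjusted p under 0.05 in limma. Of 6 interneuron markers 3 were higher and 3 lower, with 0 at that p. Of 6 striatal markers 3 were higher and 3 lower, with 1 at that p. All 6 endothelial and mural markers were lower after conditioning, 0 of them called and 2 at an unadjusted p under 0.05 in limma. Their summed scaled counts did not overlap between groups, at 802 to 1019 in controls and 593 to 787 after conditioning. By itself, 0 of the 6 had every conditioned sample below every control, and 0.939% of all tested genes did. The sum was looked at with the values in view. All 10 deep-layer neuron markers were higher (0 called, 2 at an unadjusted p under 0.05), with a median log2 change of 0.45, beside 0.46 for Nr4a2 and 0.68 for Nr4a3. Their sums were 1914, 2708, 1802 and 2123 in controls 1 to 4 and 2778, 2007, 3696 and 2790.0 in conditioned samples 1 to 4. Conditioned sample 2 had the lowest deep-layer sum of the conditioned samples but the highest Nr4a2 and Nr4a3 values of all samples. The 7 excitatory neuron markers, which share Tbr1 with the deep-layer list, were also all higher, with 0 called or at an unadjusted p under 0.05 in limma. Their sums were 8675, 10868, 8199 and 11056.5 in controls and 11444, 11846, 10187 and 8072 in conditioned samples. The conditioned samples stood in the same order for the excitatory sum as for Nr4a1, and the controls did not. All listed markers of astrocytes (6), the oligodendrocyte lineage (7), microglia (6) and meninges and choroid (6) were lower, and 0 were called. An unadjusted p under 0.05 in limma was found for 1 astrocyte and 1 meningeal or choroid marker. Fcrls, a microglial gene outside the list, was higher on average, at 96.2 ± 35.4 in controls and 145 ± 44.7 after conditioning (SD, n = 4). Of 9 markers of the deepest layer and the claustrum, where Nr4a2 is a known marker, 5 were higher and 4 lower, with sums of 1014, 1068, 1204 and 1518 in controls 1 to 4 and 1043, 1167, 1488 and 1260 in conditioned samples 1 to 4. The part of cell composition in the Nr4a values was not tested, and in whole tissue fewer cells of a type and less RNA per cell cannot be told apart.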

How the data were processed

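The deposited table holds 8 sample columns and 22609 gene symbols, all columns were used, and 25 symbols had been turned into dates. It is named for FPKM, but its values carry no length correction: in every deposited column, all values above 0 were integer multiples of one unit to within 0.01 read. They were used as a signal, read counts that the authors had scaled by a constant for each sample. The submitters' processing notes name TopHat, HTSeq and, for these mouse samples, hg19. Strand handling, annotation and the scaling constant are not given in those sources, so overlapping genes cannot be separated. Undoing the scaling gave 1992452 to 3565356 reads per sample. Replicate libraries differed by more than sampling noise (chi-square per degree of freedom 2.56 to 25.3 over 12 pairs within groups). The labels do not say that replicates are separate animals, so p-values measure the spread between these samples.

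Values were transformed to log2(value + 1), a scale that understates changes of low genes. The 14704 genes with a mean of at least 1 were tested in limma 3.58.1 under R 4.3.3 (variance trend, two-sided, Benjamini-Hochberg over all genes, threshold 0.05). The test was run beforehand on simulated data with a fixed scatter not estimated from these samples. That run does not give its power here. edgeR 4.0.16 and DESeq2 1.42.0 on recovered reads were alternatives, beside other pseudocounts, filters and scalings and each sample left out. Members, gene lists and tests were chosen with earlier results of these data known. Named genes were the 3 members, the 5 genes most like each (mean at least 50, unnamed loci passed over) and, per pathway list, those past the threshold or else the 2 of smallest p (1 of these is not reported here); other names were chosen after their values were seen. Marker sums, ratios, spreads and companion counts were added with the values in view. Deviations from group means of same-numbered samples correlated at 0.22 to 0.55 over 8739 genes in all 4 pairs, and the numbers were used as a block. The labels give no reason for pairing by number, and these correlations do not establish it. Controls 2, 3 and 4 were closer to conditioned samples 1 (0.67), 4 (0.76) and 3 (0.36) than to those of their own number. The block changed no call. Promoters were from RefSeq and exon lengths from GENCODE vM21 (GRCm38).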

Additional observations from a re-analysis of the deposited data

Results flagged for a closer look

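In 2 of 64 groups of 4 values examined, 1 sample stood apart from the other 3 by more than the critical share of the group's range in Dixon's test, where chance gives about 1 in 20. No group of Nr4a values or of their ratios was among them. Ep300, a CREB coactivator gene, was 248 in context control 4 and 297 to 304 in the other controls. Mrps12, a gene named for its likeness to Nr4a3, was 71.2 in the highest control and 63.1 to 64.4 in the other controls.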

How the results depend on the processing

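Nr4a2 and Nr4a3 kept their direction and stayed short of the threshold under all 18 alternatives, at 0.35 to 0.59 and 0.51 to 0.83 on the log2 scale. With the replicate block their log2 changes were 0.46 and 0.68, that of Nr4a1 was -0.10 and 0 genes were called. Nr4a1 changed sign, to 0.0657 with edgeR, 0.0686 with DESeq2 and 0.16 with array weights, and ranged from -0.43 to 0.23 with each sample left out; the cause was not tested. Genes called ranged from 0 to 1 with each sample left out (1 lower, without fear conditioning replicate 4) and were 0 under each other setting, where 272 to 823 genes had an unadjusted p under 0.05. With each sample left out, r ranged from -0.0761 to 0.703 for Nr4a1 and Nr4a2, from -0.13 to 0.60 for Nr4a1 and Nr4a3 (both negative without fear conditioning replicate 2), and from 0.53 to 0.84 for Nr4a2 and Nr4a3. The last passed an unadjusted exact permutation p of 0.05 except without context control replicate 1 (p = 0.0609), context control replicate 4 (p = 0.0526) or fear conditioning replicate 2 (p = 0.225), each with 7 samples. Ddc changed sign, to -0.0118 with edgeR and -0.0011 with DESeq2, and ranged from -0.0114 (without context control replicate 4) to 1.17 with each sample left out. Of the other values of named list genes and list medians, 516 kept their call or moved by less than the spread of samples, and 2 medians moved by more. For genes, a kept call means the same sign and still no call, which says little at a limma adjusted p of 0.9998. Sizes could move widely, as the log2 change of Vdr ran from 0.37 to 4.46 and that of Aldh1a1 from -1.08 to -0.21. Medians near 0 changed sign among the 516, as for companions (-0.13 to 0.11), other nuclear receptors (-0.14 to 0.05), interneurons (-0.04 to 0.12), layer 6b and claustrum (-0.02 to 0.20) and striatal markers (-0.30 to 0.29). Depth limits Nr4a3 most, at 50 to 158 reads per sample.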

Other observations

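The wider nuclear receptor family gave no call. Of 31 tested receptors outside the Nr4a and retinoid X groups, 13 were higher and 18 lower after conditioning, with a median log2 change of -0.02. The smallest p belonged to the vitamin D receptor gene Vdr, with 0 reads in all 4 controls and 4, 0, 3 and 3 reads in conditioned samples 1 to 4, a level at the floor of detection. Next was Nr2e1, a receptor gene of neural progenitors and astrocytes, at 109 ± 23.3 in controls and 80.8 ± 24.9 after conditioning (SD, n = 4, log2 change -0.45, limma adjusted p = 0.9998). Its groups overlapped, since control 4 stood at 77.3 and conditioned sample 4 at 114.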
